A study of Mus musculus with 2 samples.

Results

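The T cell receptor gene segments were followed on 2 Affymetrix whole-transcript mouse arrays, as the probe sets whose platform annotation gave exactly 1 gene symbol and that symbol was a T cell receptor segment. Of 41345 probe sets, 23521 had 1 symbol and 21 of these were receptor segments, under 8 symbols. The letters of the selection also matched the probe set of Tradd, an adapter of TNF receptor signalling and not a receptor gene, which was set apart (log2 intensity 5.72 on fucose and 4.70 off fucose). By symbol, all 21 probe sets were of variable (V) segments, and which part of a locus each one reads was not tested. The alpha locus had 18, under the symbols Trav12-2, Trav9d-3, Trav7-4, Trav14d-3-dv8 and Trav3-4. The beta locus had 1 (Trbv13-2) and the gamma locus 2 (Trgv5 and Trgv6), and no probe set had a symbol of the delta locus alone. A further probe set names Trav3n-3 together with the RIKEN clone A430107P09Rik, and was therefore not counted.

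Both arrays held RNA from Fx-/- mouse spleen cells labelled cDC1, the conventional type 1 dendritic cell that presents antigen to CD8 T cells, and named cDC1-enriched splenocytes in the title of the series. Fx, now named Gfus, encodes an enzyme that makes GDP-fucose from mannose, so these mice depend on supplied fucose. The on-fucose array was from mice given fucose and the off-fucose array from mice without it, and both groups shared the genotype, the tissue, the depletion with B220 and CD11b antibodies, the selection for CD11c and an input of 9 ng of total RNA. Neither the number, age and sex of the mice nor the dose and duration of fucose was given in the sources used here, and no wild-type array was used. With 1 array per group no test and no replicate error could be had. Every difference below is the log2 ratio of the off-fucose to the on-fucose intensity, so a value below 0 means lower off fucose, and compares only these 2 arrays. Of the cDC1 list, Xcr1 (2.90 on fucose and 3.43 off fucose), Zbtb46 (2.84 and 2.98) and Itgax, which encodes CD11c (3.83 and 3.86), were dim on both arrays. Other genes of the cDC1 list were brighter, and the top 20% of probe sets held 5 of its 15 measured genes on fucose and 10 without it. Among them, the lysosomal amidase gene Naaa had 5.97 and 8.36, while Cd8a (8.37 and 8.22) is shared with T cells. Cd24a (4.87 and 7.48), Irf8 (4.18 and 6.68) and Wdfy4 (4.28 and 5.84) were in the top 20% off fucose. Of the 15 genes, 11 were higher off fucose and 4 lower. By comparison, the 16 genes measured for the T cell receptor complex and its signalling all lay in the top 20% on each array. A poorly responding probe set also gives a dim value, so these ranks do not measure cell shares.

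The T cell receptor is a pair of chains, alpha with beta or gamma with delta, held at the cell surface by the CD3 proteins. Each chain gene is assembled in the thymus by joining a V segment to joining and, in beta and delta, diversity segments, and splicing then adds a constant region. A mature T cell uses only a few of the many V segments, so the RNA of a V segment in a mixed population reflects all the T cells that chose it. The delta segments lie inside the alpha locus, and some V segments there, marked dv in the symbol, can be used in either chain. Dendritic cells do not rearrange these genes.

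The annotation reached only a small share of the segments. The RefSeq gene table (assembly GRCm38.p6) lists 270 T cell receptor segments and constant regions, and 8 of them had a probe set with 1 symbol. These were 5 of 130 alpha V segments, 1 of 35 beta V segments and 2 of 7 gamma V segments, and RefSeq lists all 8 as V segments and none as a pseudogene. None of the diversity, joining or constant segments of any locus was among them, so segment classes could not be compared, and Trac, Trbc1, Trbc2, Trdc, the NKT-cell pair Trav11 and Traj18 and the MAIT-cell pair Trav1 and Traj33 are not reported. All 21 probe sets matched RefSeq by Entrez ID. Where in the genome each probe set lies was not given in the sources used here. A V symbol therefore does not settle which segment a probe set reads, nor that no joining or constant segment was read.

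Signal of the probe sets with alpha and beta symbols was mostly strong on both arrays, and most had a slightly lower value off fucose. The median log2 intensity of all 21 was 8.10 on fucose and 7.87 off fucose, where the median of all probe sets was 2.81 and 2.82. Differences below 0 were found in 18 of 21, against 49.9% of all probe sets with 1 symbol and 61.5% of the brighter ones, with a mean log2 of 5 or more. With the differences centred on the list of receptor complex and signalling genes, called the T cell centring from here, 11 of 21 were below 0, and with loess 17. The median difference of the 21 was -0.29, beside 0 for all probe sets with 1 symbol and -0.073 for the brighter ones, and it was -0.019 with the T cell centring. At least 2-fold lower values were found for 2 of the 21 (background 0.255%, or 0.515% among the brighter ones) and at least 1.5-fold lower values for 4 (background 2.28%, or 4.14%). No member was 1.5-fold or 2-fold higher, where the background was 3.15% and 1.16%, or 3.95% and 1.91% among the brighter ones. These shares describe 21 probe sets and test nothing.

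**Figure D1:**
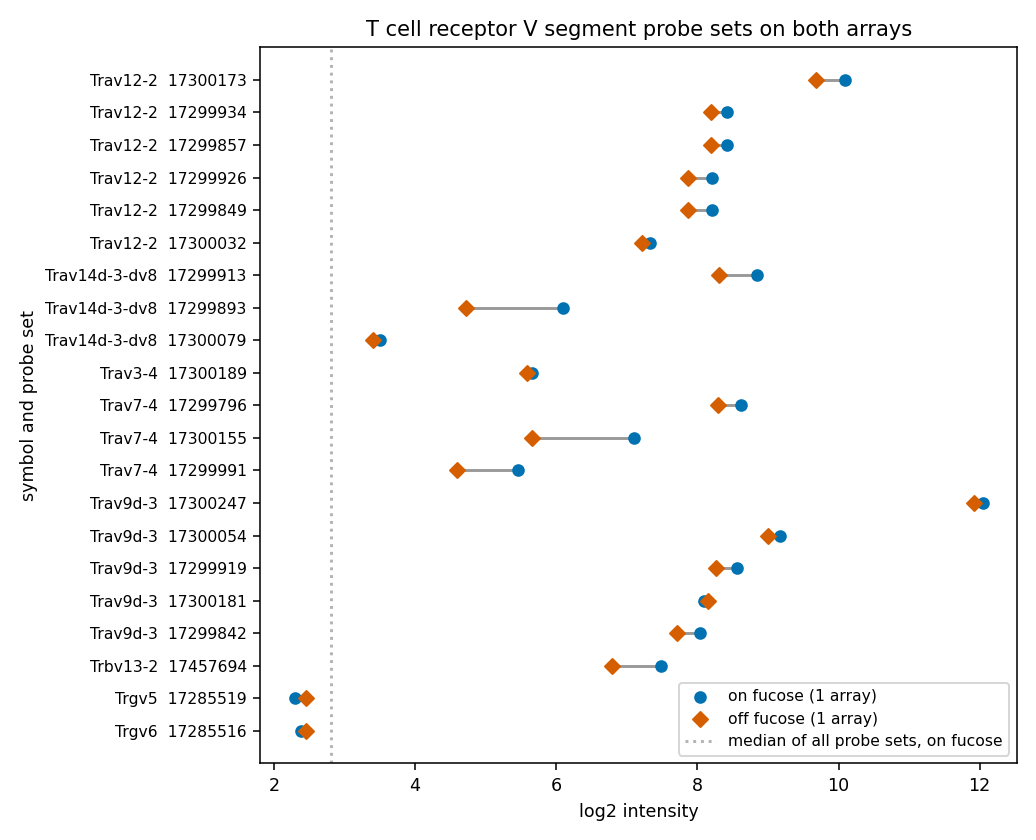
Log2 intensity (x axis) of each of the 21 T cell receptor probe sets (y axis, with symbol and probe set number) on the on-fucose array (circles) and the off-fucose array (diamonds). Each line joins the 2 values of a probe set, and the longest lines are those of Trav7-4 17300155 (7.10 and 5.65) and Trav14d-3-dv8 17299893 (6.09 and 4.72), while both gamma segments lie left of the dotted median of 2.81.

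Symbols were not evenly covered, and probe sets that shared a symbol did not share a level. Trav12-2 stood on 6 probe sets, Trav9d-3 on 5, and Trav7-4 and Trav14d-3-dv8 on 3 each. RMA gives 1 value per probe set, and the response of probe sets differs, so a level of a probe set was not set against that of another to rank segments. Among the members, 2 pairs of Trav12-2 probe sets had identical values on both arrays (17299849 with 17299926, and 17299857 with 17299934), which left 19 distinct measurements. Counted once each, 16 of 19 were below 0 and the median stayed at -0.29.

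The symbol Trav12-2, of an alpha V segment, was lower off fucose on each of its 6 probe sets, all by less than 1.5-fold. The largest difference for this symbol, -0.40, was that of 17300173, at 10.09 with fucose and 9.69 without. The first identical pair had 8.21 and 7.87 (-0.34), and the second had 8.42 and 8.19 (-0.23). The smallest difference was that of 17300032, with 7.32 and 7.21 (-0.12). The symbol's differences thus spanned only 0.29. With the T cell centring, the second identical pair and 17300032 turned positive.

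The symbol Trav9d-3, of another alpha V segment, included the brightest member and the only alpha probe set with a positive difference in the values as deposited. Its probe set 17300247 had 12.04 and 11.92 (intensities of 4220 on fucose and 3864 off fucose), above 99.9% of all probe sets on each array, and a difference of -0.13. By number it was the last alpha member, whereas Trav9d-3 is number 31 of the 130 alpha V segments in RefSeq order. Its level is therefore not given as that of this segment. Probe set 17300054 had 9.17 and 9.00 (-0.16), and 17299919 had 8.56 and 8.27 (-0.29). These are small shifts on bright probe sets. Probe set 17299842 had 8.04 and 7.72 (-0.32), and 17300181 had 8.10 and 8.15 (0.059). The symbol's median difference was -0.16, and with the T cell centring only 17299842 and 17299919 remained below 0.

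The symbol Trav7-4, also of the alpha locus, included the probe set with the largest difference of any member. Probe set 17300155 went from 7.10 to 5.65, which is 2.72-fold lower off fucose (-1.44), the 18th lowest difference among the 23521 probe sets with 1 symbol. Probe set 17299991 went from 5.46 to 4.59 (-0.87), the nearest to the 2-fold line of those that did not reach it. The third, 17299796, had 8.61 and 8.29 (-0.33). All 3 were below 0, but their differences spanned 1.12, so the symbol as a whole had no common size of difference. Whether all 3 read the same segment is not known.

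Trav14d-3-dv8, a V segment that can serve in alpha or delta chains, was as uneven. Probe set 17299893 went from 6.09 to 4.72, which is 2.58-fold lower off fucose (-1.37), the 20th lowest difference among the probe sets with 1 symbol. Probe set 17299913 had 8.85 and 8.30 (-0.55), and 17300079, the dimmest alpha member, had 3.50 and 3.41 (-0.093). Which chain the signal came from cannot be read from these probe sets. Without this symbol, 1 of the remaining 18 members was at least 2-fold lower.

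Trav3-4, the last of the alpha symbols, had 5.66 and 5.59 on its single probe set, a difference of -0.079 that turned to 0.19 with the T cell centring and to 0.011 with loess. The alpha locus as a whole had a median difference of -0.30 over 18 probe sets, with 17 below 0, and -0.037 with 10 below 0 under the T cell centring.

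Trbv13-2, a beta V segment known also as Tcrb-V8.2 and recognised by antibodies to the V beta 8 family, was the sole beta member. Its probe set 17457694 went from 7.48 on fucose to 6.80 off fucose, which is 1.60-fold lower (-0.68, or -0.41 with the T cell centring). A single probe set cannot stand for the beta locus, and other beta segments are not reported here.

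The gamma segments had values near the lower end of both arrays. Trgv5, used by gamma-delta T cells of the epidermis, had 2.30 on fucose and 2.45 off fucose, and Trgv6, used by those of some mucosal tissues, had 2.38 and 2.45. Their differences, 0.16 and 0.073, were smaller than the robust SD of differences among probe sets of like intensity, which was 0.17. At such intensities a segment that is absent and a segment that is weakly detected cannot be told apart, and the table has no detection call. The 2 gamma probe sets were also the only members below the median mean intensity of probe sets with 1 symbol (2.86), which 19 of 21 passed.

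**Figure D2:**
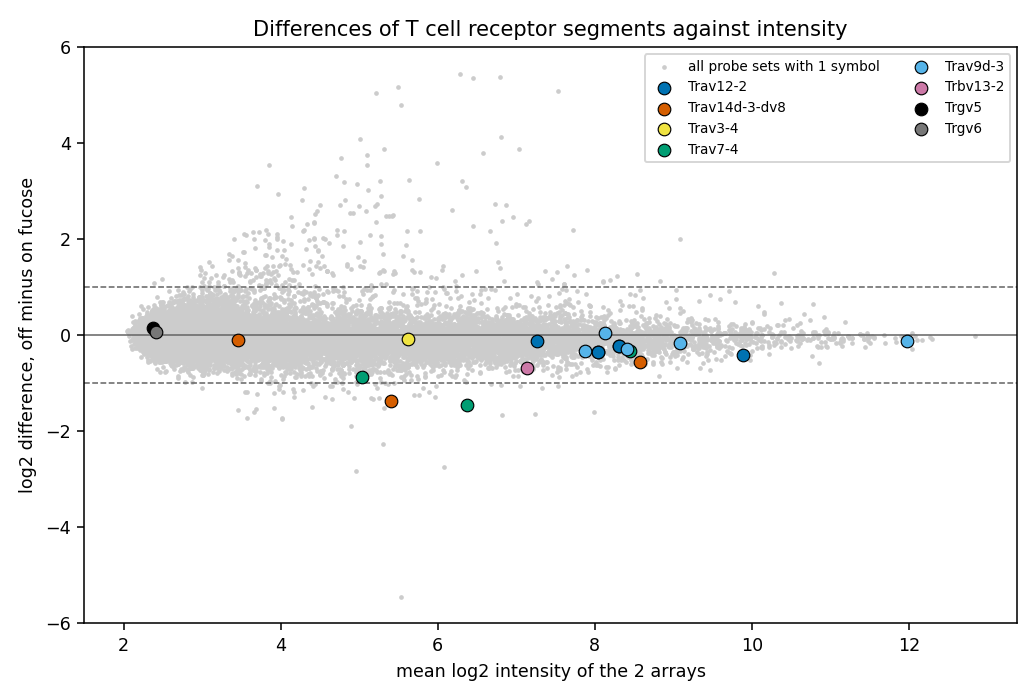
Log2 difference, off minus on fucose (y axis), against the mean log2 intensity of the 2 arrays (x axis) for all 23521 probe sets with 1 symbol (grey) and the 21 receptor probe sets (coloured by symbol). Dashed lines mark 2-fold, and 2 members, of Trav7-4 and Trav14d-3-dv8, lie below the lower one.

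The size of a difference was also set against probe sets of like intensity, in 20 bins of mean intensity, where the robust SD of the differences ran from 0.17 to 0.34. This SD is a spread across probe sets of these 2 arrays and not a replicate error. Differences of at least 2 robust SD in the lower direction were found for 6 of the 21 members, against 3.41% of all probe sets with 1 symbol. They belonged to Trav7-4 17300155 (-5.15 robust SD) and 17299991 (-2.70), Trav14d-3-dv8 17299893 (-4.70) and 17299913 (-2.80), Trbv13-2 (-2.88) and Trav12-2 17300173 (-2.06). No member reached 2 robust SD in the higher direction. The differences were not centred on the median of their bin, and the brighter probe sets with 1 symbol had a median of -0.073. All 6 of the lower members had a mean log2 of 5 or more. The share among probe sets of like intensity was not computed.

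The genes of the proteins that carry the receptor and its signal had RNA differences of a similar size. Of 19 genes listed for the receptor complex and its signalling, 16 had a probe set of their own. Of these, 15 were below 0, against 49.9% of all probe sets with 1 symbol and 61.5% of the brighter ones. None was 2-fold apart (background 1.2% higher and 0.257% lower among genes). The median was -0.27 (-0.23 to -0.28 with loess, quantile normalisation and median centring). This list's median is the value used for the T cell centring. Cd3e, a CD3 chain, went from 10.97 to 10.55 (-0.42), and Cd3g and Cd3d, the other measured CD3 chains, had -0.24 and -0.16. Cd247, which encodes the zeta chain, had no probe set of its own, nor had Rag1. The adapter gene Lat had -0.23 and the kinase gene Zap70 -0.098, and the list ran from -0.75 in Trat1, a receptor-associated adapter, to 0.052 in Ptprcap. Of the 21 receptor probe sets, 15 lay within that range, 3 below it (2 of Trav7-4 and 1 of Trav14d-3-dv8) and 3 above it (1 of Trav9d-3 and both gamma segments). In a bulk sample, fewer T cells and less receptor RNA per T cell cannot be told apart.

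The coreceptors and the factors of alpha-beta T cells were likewise below 0, although with the T cell centring the coreceptor median turned to 0.11. Cd4 went from 8.42 to 8.05 (-0.37), Cd8a from 8.37 to 8.22 (-0.16) and Cd8b1, the second chain of the CD8 coreceptor, from 10.95 to 10.81 (-0.14). All 9 measured transcription factors of the alpha-beta T cell list were below 0, none by 2-fold, with a median of -0.39. Among all probe sets with 1 symbol, 49.9% were below 0 and 0.255% at least 2-fold lower, or 61.5% and 0.515% of the brighter ones. The 8 measured genes of naive T cells had a median of -0.24, or 0.023 with the T cell centring. Of the 13 effector and memory T cell genes, 9 were below 0 and 4 above. Their median was -0.29, or -0.018 with the T cell centring. The genes that rearrange the receptor had a median difference of -0.24 over 9 measured (0.032 with the T cell centring), and the top 20% held 2 of the 9 on fucose and 1 without it. Rag2, of the recombinase, had 2.34 and 2.49, Dntt, which adds bases at the joins, 2.99 and 2.56, and Ptcra, the partner of the beta chain before alpha is made, 2.92 and 2.95. These 3 genes act in developing lymphocytes, and their values lay near the array medians or below them. The DNA repair genes Xrcc5 and Prkdc, which other cells use too, were brighter, with 5.94 and 5.44 for Xrcc5 and 4.92 and 4.69 for Prkdc.

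Genes of gamma-delta T cells were dim as well. Of the 12 listed, 10 were measured, and none was in the top 20% of all probe sets on either array. Their median difference was 0.20 (0.47 with the T cell centring), with 6 above 0 and 4 below, and none had a mean log2 of 5 or more. The interleukin 23 receptor gene Il23r, at 2.65 on fucose and 3.88 off fucose, was the only one at least 2-fold apart. Among all genes, 1.2% were at least 2-fold higher and 0.257% lower. The lowest difference of the list was that of Id3, at 4.66 and 3.86 (-0.80).

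**Figure D3:**
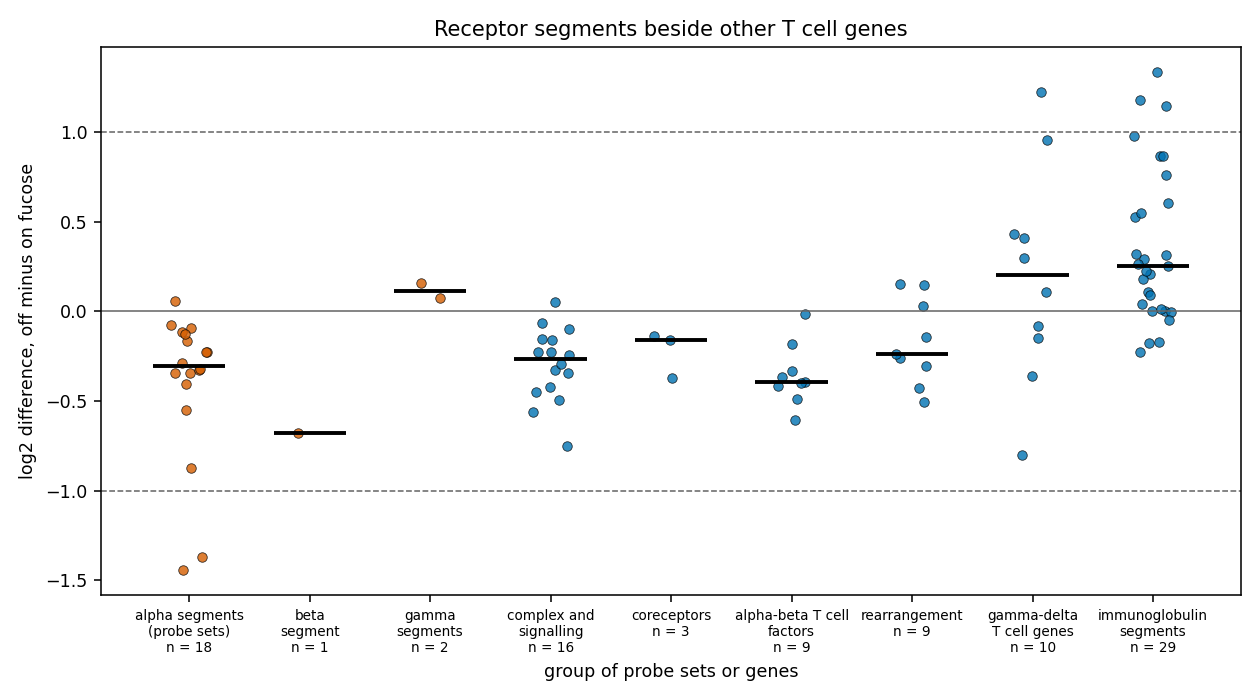
Log2 difference, off minus on fucose (y axis), for the receptor segments by locus (orange) and for gene lists and the immunoglobulin segments (blue). Each point is 1 gene in the gene lists and 1 probe set elsewhere, and the black bar is the median. The alpha segments (median -0.30) and the receptor complex list (-0.27) lie mostly below 0, and the immunoglobulin segments (0.25) mostly above it.

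Immunoglobulin segments, the antigen receptor genes of B cells, had mostly positive differences. Their 29 probe sets with 1 symbol had a median of 0.25, beside -0.29 for the T cell receptor segments. Below 0 were 5 of the 29, and 18 of the 21 T cell receptor probe sets (background 49.9%). Of the 29, 3 were at least 2-fold higher and none was 2-fold lower (background 1.16% and 0.255%). Among the brighter probe sets, the medians were 0.041 for 9 immunoglobulin and -0.32 for 18 T cell receptor probe sets. The other B cell genes mostly did not share that direction in the values as deposited. The B cell list had a median of -0.21, with 6 of 9 measured genes below 0 and 3 above, and turned to 0.054 with the T cell centring. The lowest were Cd79a, a chain of the B cell receptor complex (3.21 and 2.53, -0.69), and the inhibitory receptor gene Cd22 (3.73 and 3.14, -0.59). The highest was Blk (3.47 and 3.88, 0.41). Only 1 of the 9 had a mean log2 of 5 or more, so most of these differences are of dim probe sets. With 1 array per group the difference between the receptor families was not tested.

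Markers of other cells also differed between the arrays, and their part in the differences of the receptor segments was not tested. All 10 granulocyte precursor genes were higher off fucose, 8 of them at least 2-fold (background 1.2% of genes). Their summed intensity was 109 on fucose and 2959 off fucose. All 7 measured erythroid genes were at least 2-fold higher, against the same background, with sums of 79.9 and 514. The cDC1 list, with 15 of 16 genes measured, had sums of 846 and 1317, and 11 genes above and 4 below 0. Without Cd8a, which T cells carry too, these sums were 514 and 1020. The 3 other genes below 0 were Id2 (7.03 and 6.73), Ly75 (6.80 and 5.86) and Itgae (6.02 and 5.64). Which cells gave the signal of the cDC1 list was not tested, for its higher genes or its lower ones. The sums of this list therefore do not measure the share of cDC1. The 16 genes of the receptor complex list had sums of 13193 and 10920. Xist, an RNA of female cells, had 8.26 and 2.82, the lowest difference among all probe sets with 1 symbol (-5.44). If the mice of the 2 arrays differed in sex, sex and fucose cannot be told apart in any difference given here.

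Between the first and the last alpha probe set by number (17299796 to 17300247), the table held 163 probe sets, of which 140 were not named by the annotation. They are given here only as the numbered neighbours of the alpha members, and no name was inferred for them. Differences below 0 were found in 114 of the 140, against 49.7% of all unnamed probe sets, and their median was -0.27. Among the 85 brighter ones, 74 were below 0, against 56.4% of the brighter unnamed probe sets, with a median of -0.33. At least 2-fold lower values were found in 5 of the 140, against 3.57% of all unnamed probe sets, and in 2 of the 85, against 6.91%, and none was 2-fold higher. The 140 held 130 distinct pairs of values, so some neighbours repeat a measurement. The alpha members, with a median of -0.30, lay among these neighbours in the plot by probe set number.

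**Figure D4:**
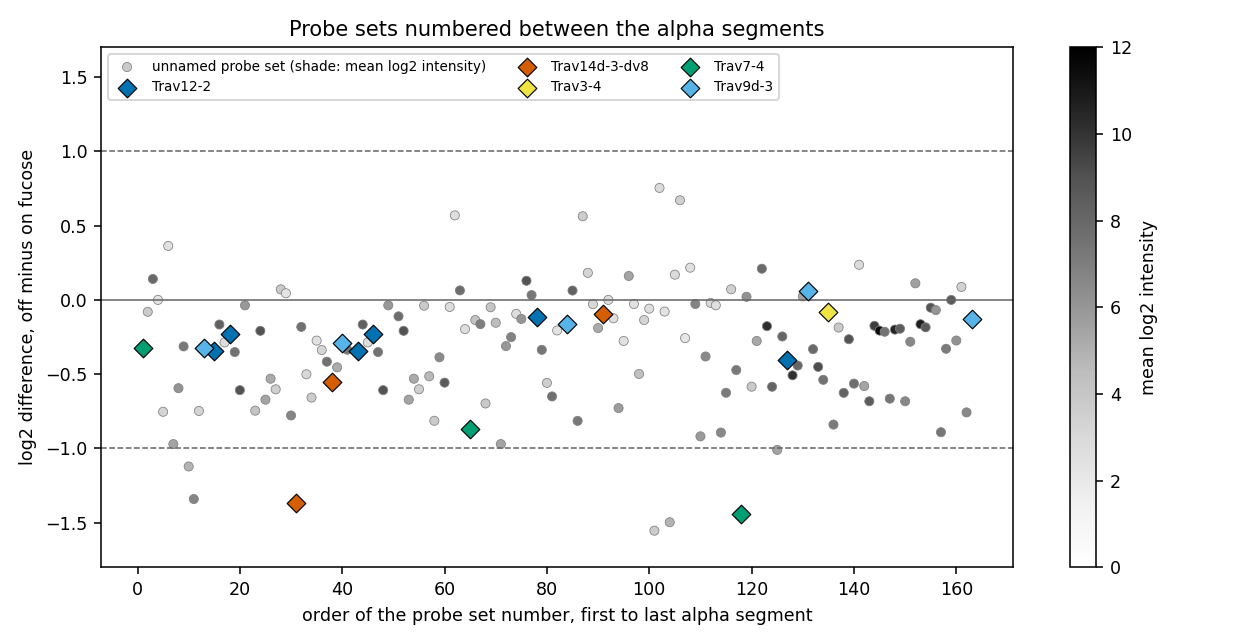
Log2 difference, off minus on fucose (y axis), of the 140 unnamed probe sets (circles, shaded by mean log2 intensity) and the 18 alpha segment probe sets (diamonds, coloured by symbol), in order of probe set number (x axis). Of the unnamed probe sets, 114 lie below 0, and the lowest, at -1.55, lies below the lowest alpha member at -1.44.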

How the data were processed

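The authors deposited 1 linear intensity per probe set and array, which per the submitters' processing notes come from RMA. Its version and settings and the build are not given in the sources used here. Intensities ran from 2.74 to 9512, and log2 was taken of each. Symbols came from the platform annotation, where 1814 probe sets had several symbols and 16010 were not listed. Each member probe set was kept. For gene lists, the probe set with the highest mean stood for a gene, of 22180 genes. The members, lists and rules were chosen with earlier results of these data known. Named were all members, the CD3, coreceptor and rearrangement genes fixed by rule, and further list genes chosen after their values were seen. The other settings tried were quantile normalisation, loess (span 0.3), median centring, centring on the receptor complex list, filters on mean intensity, folds of 1.5 and 3, symbol means, and leaving out dv segments or identical values. The precision is limited by the number of arrays, 1 per group. The calculations were tested on simulated data. Python 3.11.15, NumPy 2.4.6, pandas 2.3.3 and statsmodels 0.14.6 were used.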

Additional observations from a re-analysis of the deposited data

How the results depend on the processing

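No paired analysis was possible because a single array stood for each condition, which also leaves no array to omit in turn. Quantile normalisation, loess and median centring left 2 members at least 2-fold lower and none higher, and gave medians from -0.30 to -0.22. Centring on the T cell list, which adds 0.27 to every difference, gave medians of -0.019 for all members (all of them with V symbols), -0.037 for alpha, -0.41 for beta and 0.38 for gamma. The 2 members at least 2-fold lower became 1 without the dv segments, 0 with the mean of each symbol's probe sets, 4 at 1.5-fold and 0 at 3-fold, the last 2 by the threshold itself. The symbol means pool probe sets with unequal differences. No gamma member passed either intensity filter. Low signal over background limits the gamma segments.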
